A study of Mus musculus with 6 samples.

Results

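The liver makes most proteins of the blood plasma, and 38 mouse genes for such proteins were followed here in fetal thymic stroma, out of 22513 gene entries measured by RNA sequencing. They were chosen by name, as a fixed set of apolipoproteins, carriers, clotting factors, protease inhibitors and acute-phase proteins, by a rule that uses no measured value, though with earlier results of these data known, and each name was found on exactly 1 entry. RNA came from thymus lobes of C57BL/6 embryos in fetal thymus organ culture (FTOC). All lobes had been kept for 4 days with 2-DG, a nucleoside toxic to dividing haematopoietic cells, so that mostly stroma was left. The 4 groups were wild-type (WT) stroma without RANKL (1 library), *Jmjd6*-/- stroma without RANKL (1 library), WT stroma stimulated with RANKL (2 libraries) and *Jmjd6*-/- stroma stimulated with RANKL (2 libraries). RANKL is the ligand of the receptor RANK on epithelial cells of the thymic medulla. The *Jmjd6*-/- embryos lack the dioxygenase Jmjd6 in every cell, so stroma of all kinds carries the deletion. Repeated libraries are technical duplicates by their labels, so the p-values below measure the spread between libraries, which may be technical, and the groups without RANKL have no replicate.

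Medullary thymic epithelial cells (mTECs) transcribe, each cell a few, many genes that otherwise mark a single organ, and the transcriptional regulator Aire is needed for a large part of them. This lets developing T cells meet proteins of distant organs before they leave the thymus. Plasma proteins of the liver are classic examples of such tissue-specific self-antigens (TSAs). In the liver itself the same genes are transcribed at high levels under factors of the HNF4, FOXA and C/EBP families.

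Libraries held an estimated 15400000 to 31500000 fragments, read from the steps between low FPKM values (fragments mapped per kilobase of transcript, scaled to all mapped fragments of the library). *Jmjd6* was listed at 25.9 to 32.5 FPKM in the 3 WT libraries and at 1.32 to 1.96 in the 3 *Jmjd6*-/- libraries. *Aire* transcripts rose from 0.142 and 0.473 FPKM in the WT and *Jmjd6*-/- libraries without RANKL to 78.0 and 79.7 in WT and 75.1 and 67.1 in *Jmjd6*-/- with RANKL. Thymic epithelium was present in every library, with the 10 medullary epithelial markers found summing to 1418 to 2319 FPKM and 8 cortical ones to 9063 to 14670. *Krt5*, at 1006 to 1977 FPKM, made up most of the medullary sum in every library. Macrophage markers were also there, at 619 to 824 FPKM over 9 genes, while 7 T cell markers summed to 1.1 to 3.52. In whole stroma, fewer cells of a type and less RNA per cell cannot be told apart.

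Sequences upstream of 7 members are shown first, because they belong to the gene groups that the values below turn on. *Apoa1* and *Apoa4* lie in 1 cluster of apolipoprotein genes and were lower without Jmjd6. *Saa1* and *Saa2* are near-identical neighbours, which bears on how their reads were divided. *F7* and *F10* are adjacent clotting factor genes that rose with RANKL, and *Alb*, the gene for serum albumin, stayed near the limit of detection. Each window holds the 200 bases before the transcript start in RefSeq (build GRCm38.p6, the same assembly as mm10), 5′ to 3′ on the strand of the gene. Capitals mark matches, on either strand, to 3 short motifs. The nuclear receptor motif searched, which HNF4 binds among others, was AGGTCA. The C/EBP motif was TTGCNNAA. The core promoter motif known as the TATA box was searched as TATAAA. No 2 matches overlapped in the windows shown. The windows are chr9:46228430-46228629 (*Apoa1*, plus strand), chr9:46240644-46240843 (*Apoa4*, plus), chr7:46742981-46743180 (*Saa1*, minus), chr7:46751633-46751832 (*Saa2*, plus), chr8:13025834-13026033 (*F7*, plus), chr8:13037108-13037307 (*F10*, plus) and chr5:90460670-90460869 (*Alb*, plus).
Apoa1: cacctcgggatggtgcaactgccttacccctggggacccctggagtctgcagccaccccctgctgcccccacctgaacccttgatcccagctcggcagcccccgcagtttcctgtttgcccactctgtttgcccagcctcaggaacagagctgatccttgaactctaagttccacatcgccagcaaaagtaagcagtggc
Apoa4: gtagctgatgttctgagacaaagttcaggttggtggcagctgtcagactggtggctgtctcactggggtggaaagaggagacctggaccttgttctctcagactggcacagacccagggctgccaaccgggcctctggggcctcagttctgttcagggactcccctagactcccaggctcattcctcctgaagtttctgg
Saa1: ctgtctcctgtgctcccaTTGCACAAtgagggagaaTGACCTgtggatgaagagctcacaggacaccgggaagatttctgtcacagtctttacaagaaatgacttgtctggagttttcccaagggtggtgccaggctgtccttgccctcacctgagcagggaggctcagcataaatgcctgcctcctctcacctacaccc
Saa2: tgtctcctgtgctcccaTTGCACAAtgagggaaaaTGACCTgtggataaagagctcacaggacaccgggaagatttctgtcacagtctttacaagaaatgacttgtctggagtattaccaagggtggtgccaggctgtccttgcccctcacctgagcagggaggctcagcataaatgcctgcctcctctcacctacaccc
F7: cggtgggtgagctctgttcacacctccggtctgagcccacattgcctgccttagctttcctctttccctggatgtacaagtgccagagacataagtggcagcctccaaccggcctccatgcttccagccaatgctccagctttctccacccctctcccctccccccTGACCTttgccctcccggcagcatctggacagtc
F10: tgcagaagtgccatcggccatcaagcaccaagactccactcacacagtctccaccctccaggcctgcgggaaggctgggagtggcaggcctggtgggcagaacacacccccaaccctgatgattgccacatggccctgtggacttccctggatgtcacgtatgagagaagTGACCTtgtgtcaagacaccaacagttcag
Alb: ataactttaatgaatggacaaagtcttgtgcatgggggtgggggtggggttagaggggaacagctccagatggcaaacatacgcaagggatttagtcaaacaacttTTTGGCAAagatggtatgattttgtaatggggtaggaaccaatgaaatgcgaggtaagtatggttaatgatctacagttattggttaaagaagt

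The *Alb* window carried a C/EBP match, the *Saa1* and *Saa2* windows a C/EBP match beside a nuclear receptor motif, and the *F7* and *F10* windows a nuclear receptor motif close to the start. None of the 3 letter strings was in the *Apoa1* and *Apoa4* windows. RefSeq promoters were matched for 31 of the 38 members. Over these, the nuclear receptor motif was found in 8 windows (11.4% of all 32851 promoter windows held it), the C/EBP motif in 11 (7.47% of all) and the TATA box in 6 (9.96% of all). The *Saa1* and *Saa2* windows were 97.5% identical. These are matches of letters and say nothing of binding.

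Most members were low in these libraries. In WT with RANKL 11 and 13 of the 38 stood at 1 FPKM or more, against 6 and 4 in *Jmjd6*-/- with RANKL, 3 in WT without and 5 in *Jmjd6*-/- without. Without RANKL, the median member stood at 0.0688 FPKM in WT and 0 in *Jmjd6*-/-, when the median over all entries was 1.86 and 1.83. With RANKL the WT medians were 0.374 and 0.452 and those of *Jmjd6*-/- were 0.13 and 0.0974. The medians over all entries in these libraries were 2.39 and 2.29 in WT and 2.14 and 2.12 in *Jmjd6*-/-. A member was called detected in a library when its value stood for more than 3 fragments, the limit that a count of 0 allows. By this limit, which covers counting error only, 34 and 31 of the 38 were detected in WT with RANKL, against 19 and 18 in *Jmjd6*-/- with RANKL, 17 in WT without and 10 in *Jmjd6*-/- without. Over all 6 libraries these counts did not follow the order of depth, but within each RANKL group the deeper library held more detected members. Without RANKL the WT library had 31500000 fragments and the *Jmjd6*-/- library 15400000, so genotype and depth cannot be told apart there. The part of depth was not tested, and the share of all entries past the same limit is not given here. The WT RANKL library with 31 detected members had 15500000 fragments, and the *Jmjd6*-/- library without RANKL, with 10, had 15400000. This pair differs in both genotype and RANKL. The *Jmjd6*-/- RANKL library with 19 had 27000000.

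**Figure D1:**
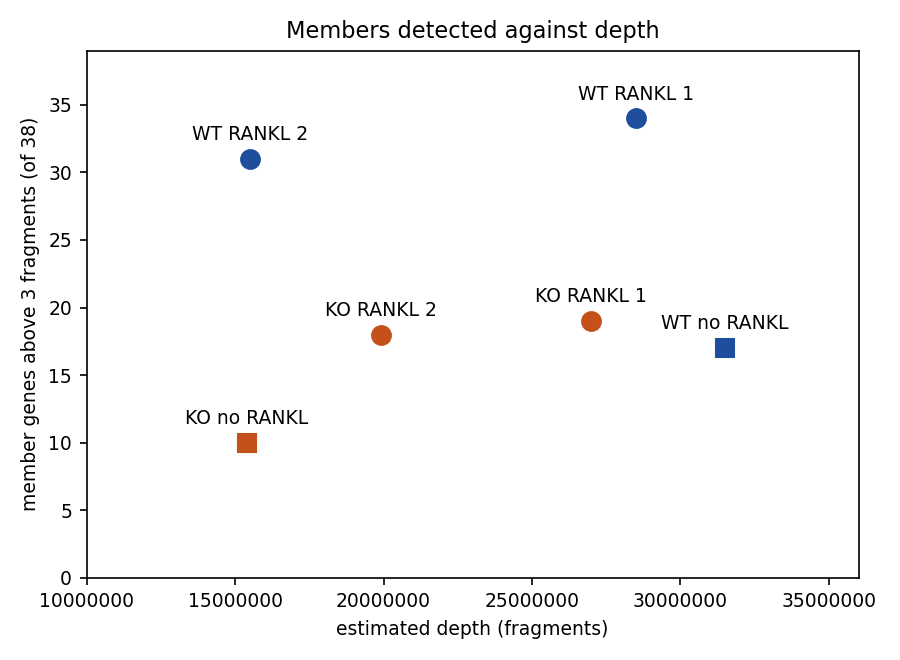
Number of the 38 plasma protein genes above 3 fragments (vertical axis) against the estimated depth of each library in fragments (horizontal axis), with WT in blue, *Jmjd6*-/- in orange, circles for RANKL and squares for no RANKL. The WT RANKL libraries hold 34 and 31 detected members at 28500000 and 15500000 fragments, above every other library.

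8 members were detected in every library (*Apoc1*, *Rbp4*, *Hp*, *Orm1*, *Vtn*, *Itih2*, *Fetub* and *Crp*) and 4 in none (*Fga*, *F9*, *F12* and *Plg*). *Plg*, which encodes the precursor of the clot-dissolving enzyme plasmin, was listed at 0 throughout. Including *Plg*, 8 members were at 0 in both libraries without RANKL. By the range rule of the study, in which the highest value exceeds the lowest by more than 3-fold after 0.1 is added to both, 25 of 38 members varied, against 14.3% of all entries.

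**Figure D2:**
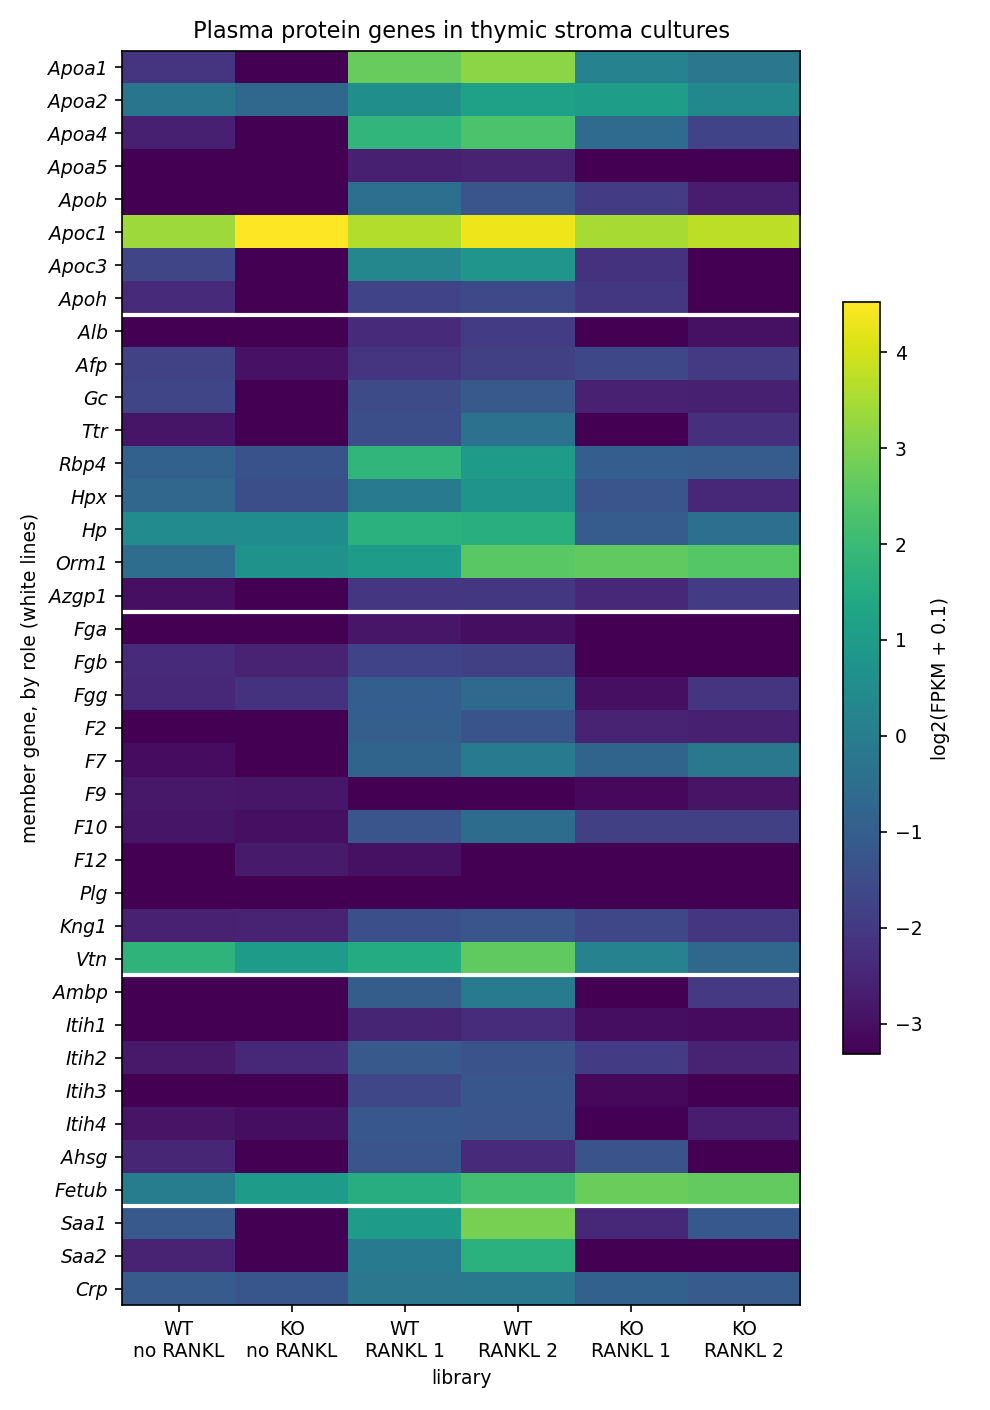
Level of each of the 38 members (rows, ordered by role with white lines between roles) in each of the 6 libraries (columns), as log2 of FPKM with 0.1 added. The WT RANKL columns are brighter than the *Jmjd6*-/- RANKL columns for most rows, whereas *Fetub* and *Orm1* are bright in both and *Apoc1* is the brightest row in all 6.

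The first question was whether plasma protein genes respond to RANKL. In limma, on log2 values with 0.1 added, 28 members passed the filter (a mean of at least 0.1 FPKM) and 10 did not (*Apoa5*, *Alb*, *Azgp1*, *Fga*, *Fgb*, *F9*, *F12*, *Plg*, *Itih1* and *Itih3*). The filter took the mean of all 6 libraries. Some members, such as *Saa2*, *Apoc3*, *F2*, *Itih4* and *Fgg*, passed it only through their WT RANKL values. Over both genotypes 7 members rose (10.5% of the 15894 genes tested rose) and none fell (4.11% fell). In WT alone 6 rose (6.05% of genes tested) and in *Jmjd6*-/- alone 3 rose (3.75%), again with none lower (0.56% and 0.346%). *F2*, among the 6 of WT, was selected by the filter for being high in WT with RANKL, so that count leans toward a rise. *Apoa1*, *F7* and *Fetub* were past an adjusted p of 0.05 in all 3 tests. By order alone, both WT RANKL libraries lay over the WT library without RANKL for 33 of the 37 members above 0 (35.3% of genes) and under it for 2 (32.0%). In *Jmjd6*-/- the same counts were 17 over (37.0% of genes) and 6 under (40.0%). Without any filter, the median log2 difference over the 38 members was 1.22 in WT and 0.44 in *Jmjd6*-/-, where the medians over 19264 genes above 0 were 0.02 and 0.0. All 4 RANKL libraries lay above both libraries without RANKL for 12 members, and for 17.1% of genes. All 4 lay below for *F9* alone, on no more than 3 fragments in each library (15.7% of genes).

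The second question was whether they differ without Jmjd6. Under RANKL, 6 members were lower in *Jmjd6*-/- than in WT stroma past an adjusted p of 0.05 in limma (1.82% of genes tested were lower) and none was higher (0.516%). The 6 were the lipoprotein genes *Apoa1*, *Apoa4* and *Apoc3*, the carriers *Rbp4* and *Hp*, and the acute-phase gene *Saa2*. Counted by order alone, 27 of the 37 members above 0 had both *Jmjd6*-/- values under both WT values when RANKL was given, and 2 had them over both, *Fetub* and *F9*. Among genes above 0 the shares were 26.5% below and 21.4% above. The unfiltered median log2 difference was −1.02 over the 38 members and −0.01 over genes above 0. 19 of the 28 tested members had an unadjusted p under 0.05, where 18.8% of all genes tested did. Members that passed the filter only through WT RANKL values, *Saa2* and *Apoc3* of the 6 among them, were selected for being high there. The count of 19 therefore leans toward a difference. Both questions share the RANKL libraries, so the answers are given side by side for each gene below and are not independent.

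Other genes also differed between genotypes under RANKL. 5 endothelial markers summed to 12.5 and 12.3 FPKM in WT and to 4.62 and 4.1 in *Jmjd6*-/-, and 7 mesenchyme markers to 697 and 635 against 407 and 393. Both lists were also higher in WT without RANKL, at 22.4 against 8.31 for endothelium and 654 against 304 for mesenchyme. Macrophage markers summed to 647 and 824 against 619 and 671, and the red cell markers, 6 of 8 listed found, to at most 2.45 in any library. Their part in the member differences was not tested.

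**Figure D3:**
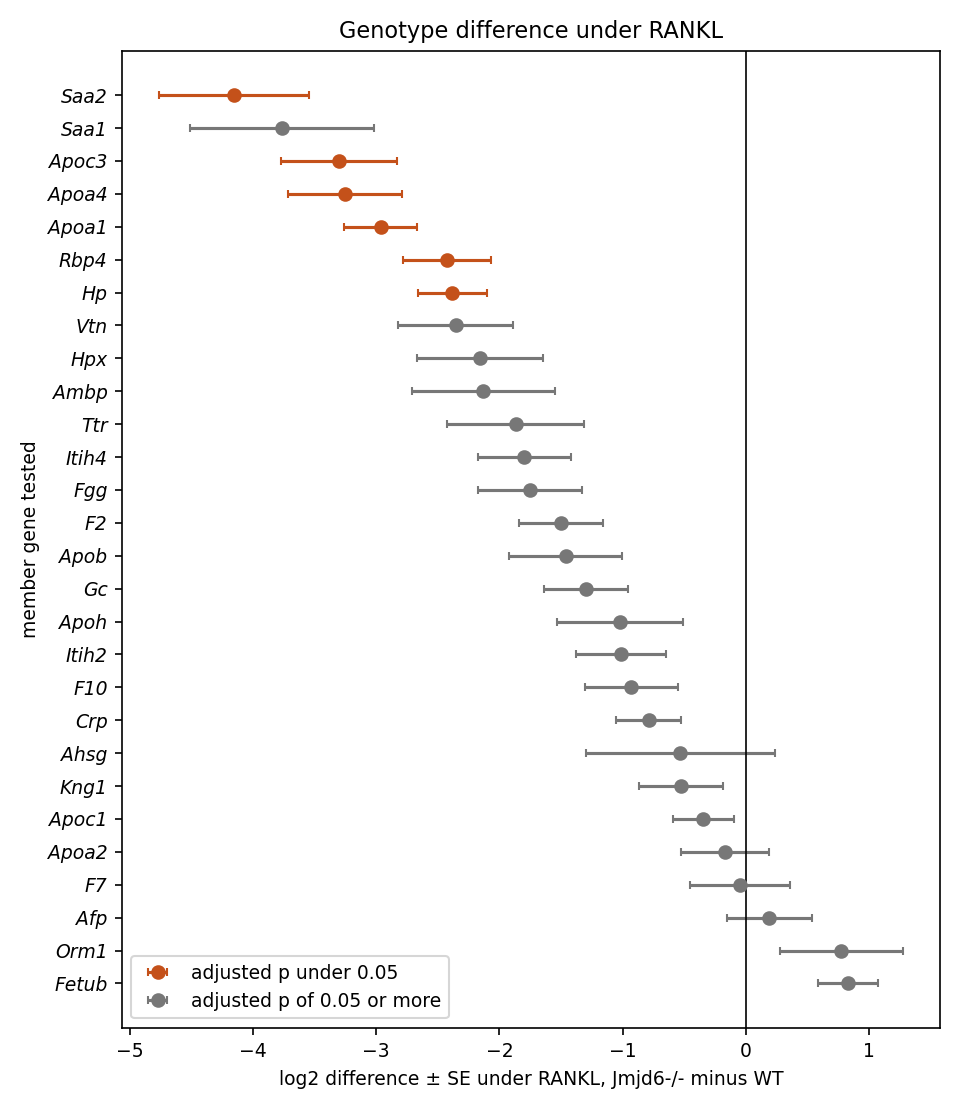
Difference under RANKL between *Jmjd6*-/- and WT stroma for the 28 members tested, as log2 difference (horizontal axis, points) with its standard error (bars). The 6 members past an adjusted p of 0.05 (orange) all lie below 0, from *Saa2* at −4.15 to *Hp* at −2.38, and *Fetub*, *Orm1* and *Afp* are the ones above 0.

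Of the 8 lipoprotein genes, 7 were tested. Of these 3 rose with RANKL over both genotypes (10.5% of all genes tested) and 3 were lower in *Jmjd6*-/- under RANKL (1.82%). *Apoa1* encodes the main protein of high-density lipoprotein. It was listed at 0.132 FPKM without RANKL and 6.35 and 8.94 with it in WT, and at 0 without and 1.01 and 0.761 with it in *Jmjd6*-/-. The groups with RANKL did not overlap, with 7.65 ± 1.83 FPKM (SD, n = 2) in WT and 0.888 ± 0.179 (n = 2) in *Jmjd6*-/-. The log2 difference was −2.96 ± 0.29 (SE, limma adjusted p = 0.0279), and it rose with RANKL by 5.04 ± 0.36 in WT (adjusted p = 0.00253) and by 3.29 ± 0.36 in *Jmjd6*-/- (adjusted p = 0.0114). The *Jmjd6*-/- library without RANKL was at 0, so its rise stands for at least a 4.04-fold higher level by the limit of 3 fragments.

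*Apoa4*, an apolipoprotein of intestinal and hepatic particles, was listed at 0.0605 FPKM without RANKL and 3.52 and 4.87 with it in WT, and at 0 without and 0.569 and 0.196 with it in *Jmjd6*-/-. Its log2 difference between genotypes under RANKL was −3.25 ± 0.46 (adjusted p = 0.0393). *Apoc3*, an inhibitor of triglyceride clearance, was listed at 0.209 FPKM without RANKL and 1.15 and 1.61 with it in WT, and at 0 without and 0.12 and 0 with it in *Jmjd6*-/-. It differed by −3.30 ± 0.47 on the log2 scale (adjusted p = 0.0395), on 21 fragments in the WT pair and 1 in the *Jmjd6*-/- pair, a ratio of 22.4 with a 95% counting interval of 3.61 to 928. These 3 genes lie within 1 stretch of chromosome 9 (mm10, *Apoa1* 46228630 to 46230466, *Apoc3* 46233051 to 46235297, *Apoa4* 46240844 to 46243458), 2.6 and 5.5 kb apart. *Apoa5*, 25.1 kb further on, was below the filter, at 0.062 and 0.0737 FPKM in WT with RANKL and 0 in the other 4 libraries. So 3 of the 4 genes of the cluster passed the genotype test. The fourth, *Apoa5*, rested on 7 fragments in the WT RANKL pair and 0 in the *Jmjd6*-/- pair. By the limit of 3 fragments this is at least 1.23-fold lower in *Jmjd6*-/-, so it adds little.

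*Apob*, the large structural protein of low-density lipoprotein, was listed at 0.00196 FPKM without RANKL and 0.628 and 0.321 with it in WT, and at 0 without and 0.16 and 0.0553 with it in *Jmjd6*-/-. Its long transcript put 315 fragments in the WT RANKL pair and 75 in the *Jmjd6*-/- pair, and the genotype difference of −1.46 ± 0.46 did not pass (adjusted p = 0.175). *Apoh*, which binds phospholipid, was listed at 0.0906 FPKM without RANKL and 0.199 and 0.231 with it in WT, and at 0 without and 0.14 and 0 with it in *Jmjd6*-/-, with 10 and 4 fragments in the RANKL pairs. *Apoa2*, the second protein of high-density lipoprotein, did not share the genotype difference of *Apoa1*, at 0.734 FPKM without RANKL and 1.4 and 2.14 with it in WT, and at 0.533 without and 2.01 and 1.16 with it in *Jmjd6*-/-. The RANKL groups overlapped, with a log2 difference of −0.17 ± 0.36 (adjusted p = 0.851), and over both genotypes *Apoa2* rose by 1.25 ± 0.29 (adjusted p = 0.033).

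*Apoc1*, a small exchangeable apolipoprotein that macrophages also make, was the highest member in every library, at 10.3 FPKM without RANKL and 12.3 and 19.9 with it in WT, and at 23 without and 11.3 and 13.4 with it in *Jmjd6*-/-. Its highest level was in the *Jmjd6*-/- library without RANKL, and the genotypes overlapped under RANKL (−0.34 ± 0.25, adjusted p = 0.547). Without *Apoc1* the members summed to 10.1 and 8.56 FPKM in WT and *Jmjd6*-/- without RANKL, to 36.6 and 58.4 in WT with RANKL and to 21.1 and 18.3 in *Jmjd6*-/- with RANKL.

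Of the 9 carrier genes, 7 were tested. With RANKL 1, *Orm1*, was higher over both genotypes (10.5% of all genes tested were) and 1, *Rbp4*, in WT (6.05%). Under RANKL 2, *Rbp4* and *Hp*, were lower in *Jmjd6*-/- (1.82%). *Rbp4* carries retinol in blood and was listed at 0.448 FPKM without RANKL and 3.53 and 1.87 with it in WT, and at 0.291 without and 0.405 and 0.392 with it in *Jmjd6*-/-. It rose with RANKL in WT by 2.29 ± 0.44 (adjusted p = 0.0442), and differed between the genotypes under RANKL by −2.42 ± 0.36 (adjusted p = 0.041). The WT RANKL libraries were apart from each other, but both were above every other library. *Hp*, or haptoglobin, binds free haemoglobin and was listed at 1.27 FPKM without RANKL and 3.1 and 2.9 with it in WT, and at 1.32 without and 0.386 and 0.628 with it in *Jmjd6*-/-. Both *Jmjd6*-/- RANKL values lay below the 4 other libraries, *Jmjd6*-/- without RANKL included. The genotype difference under RANKL was −2.38 ± 0.28 (adjusted p = 0.0282).

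*Hpx*, or hemopexin, which binds haem, ran from 0.0864 to 1.58 FPKM, at 0.496 FPKM without RANKL and 0.825 and 1.58 with it in WT, and at 0.266 without and 0.319 and 0.0864 with it in *Jmjd6*-/-. The difference between genotypes was −2.16 ± 0.51 (adjusted p = 0.0998). *Ttr*, which carries thyroid hormone together with retinol-binding protein, was listed at 0.0347 FPKM without RANKL and 0.268 and 0.656 with it in WT, and at 0 without and 0 and 0.108 with it in *Jmjd6*-/-. *Gc*, the vitamin D-binding protein, was listed at 0.21 FPKM without RANKL and 0.251 and 0.359 with it in WT, and at 0 without and 0.0665 and 0.0599 with it in *Jmjd6*-/-. For all 3 both *Jmjd6*-/- RANKL values lay below both WT values, an order that 26.5% of genes showed. The adjusted p did not pass, being 0.156 for *Ttr* and 0.123 for *Gc*.

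*Orm1*, an acute-phase carrier of basic drugs, went another way, at 0.605 FPKM without RANKL and 1.91 and 5.69 with it in WT, and at 1.52 without and 6.05 and 5.44 with it in *Jmjd6*-/-. It rose over both genotypes by 2.06 ± 0.40 (adjusted p = 0.0173). Its *Jmjd6*-/- values under RANKL were close to the second WT library and above the first, with a genotype difference of 0.77 ± 0.50 (adjusted p = 0.492). The transcript of *Orm1* is 91.0% identical to that of *Orm2*, so reads may have been divided between them. *Alb* itself, the most abundant protein of plasma, was at 0 FPKM without RANKL and 0.093 and 0.16 with it in WT, and at 0 without and 0 and 0.0267 with it in *Jmjd6*-/-. That is 10 fragments in the WT RANKL pair and 1 in the *Jmjd6*-/- pair, a ratio of 10.7 with a 95% counting interval of 1.52 to 464, and it was not tested. *Afp*, the fetal counterpart of albumin and its neighbour 14.1 kb away on chromosome 5, was at 0.0315 to 0.227 FPKM with overlapping groups. *Azgp1*, which promotes fat breakdown, stayed at or under 0.158 FPKM.

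**Figure D4:**
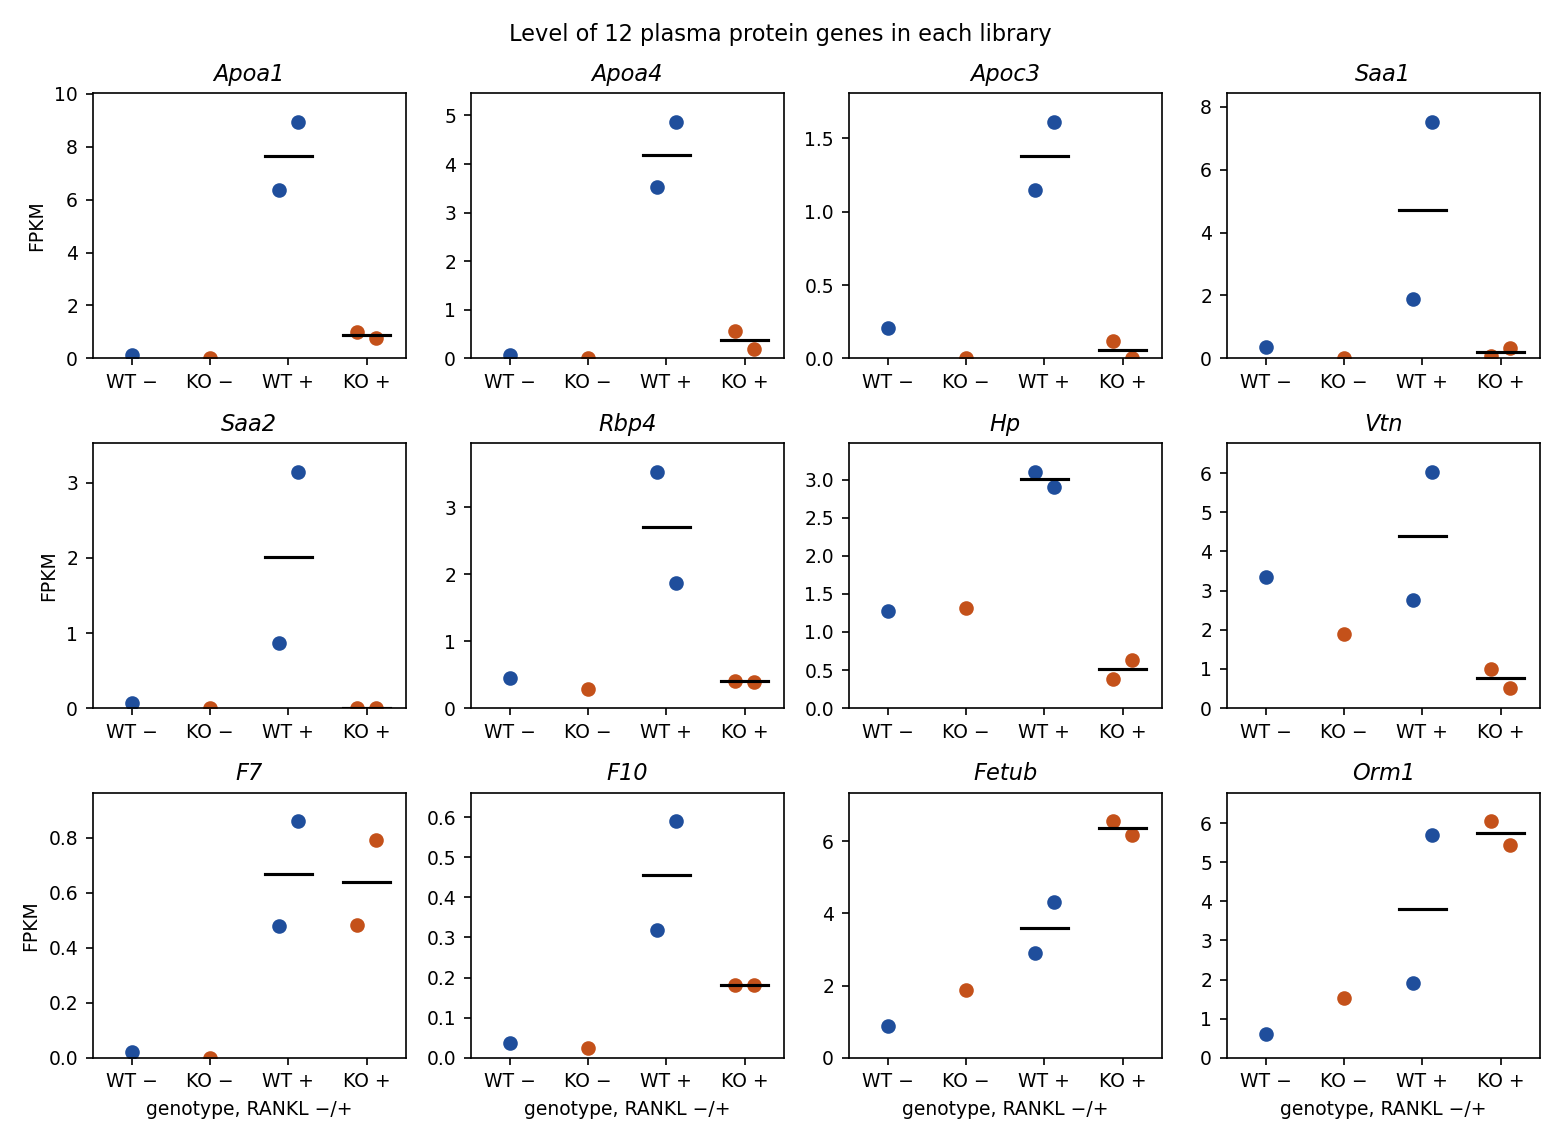
FPKM (vertical axis, from 0 in every panel) of 12 members in WT (blue) and *Jmjd6*-/- (orange) stroma without (−) and with (+) RANKL, 1 point a library, with black lines at the mean of each RANKL pair. For the upper 8 genes the *Jmjd6*-/- RANKL points lie below both WT RANKL points, an order that 26.5% of genes showed. For *F7*, *Fetub* and *Orm1* in the lower row they do not.

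The 11 genes of coagulation and fibrinolysis held the most members near 0, with 6 tested. 2 of these rose with RANKL over both genotypes, *F7* and *F10* (10.5% of all genes tested rose). None passed the genotype test (1.82% of all were lower and 0.516% higher). Factor VII, encoded by *F7*, starts the extrinsic clotting pathway. It was listed at 0.0204 FPKM without RANKL and 0.478 and 0.859 with it in WT, and at 0 without and 0.483 and 0.792 with it in *Jmjd6*-/-. It rose over both genotypes by 2.74 ± 0.34 (adjusted p = 0.00336), in WT by 2.63 ± 0.50 (adjusted p = 0.0427) and in *Jmjd6*-/- by 2.85 ± 0.50 (adjusted p = 0.0444). The genotypes under RANKL overlapped, with a log2 difference of −0.05 ± 0.41 (adjusted p = 0.968) and 46 and 49 fragments in the pairs, a fragment ratio of WT to *Jmjd6*-/- of 1.00 with a 95% counting interval of 0.656 to 1.53.

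*F10*, encoding factor X, begins 1.5 kb beyond *F7* on chromosome 8 and was listed at 0.036 FPKM without RANKL and 0.32 and 0.59 with it in WT, and at 0.0252 without and 0.182 and 0.183 with it in *Jmjd6*-/-. It rose over both genotypes by 1.58 ± 0.37 (adjusted p = 0.0337). Unlike for *F7*, both *Jmjd6*-/- RANKL values lay below both WT values, and the difference of −0.93 ± 0.38 did not pass (adjusted p = 0.273). *F2*, encoding prothrombin, was listed at 0 FPKM without RANKL and 0.422 and 0.314 with it in WT, and at 0 without and 0.0674 and 0.0615 with it in *Jmjd6*-/-. It rose in WT by 2.22 ± 0.42 (adjusted p = 0.0429), which by the limit of 3 fragments is at least 7.1-fold. It differed by −1.50 ± 0.34 between genotypes (adjusted p = 0.0923). *F2* had passed the filter only through its WT RANKL values, which both tests use.

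The 3 fibrinogen chains are encoded side by side on chromosome 3, *Fgg* 11.1 kb from *Fga* and *Fga* 8.7 kb from *Fgb*. *Fgg* was listed at 0.0845 FPKM without RANKL and 0.412 and 0.544 with it in WT, and at 0.124 without and 0.0246 and 0.133 with it in *Jmjd6*-/-. *Fgb* was below the filter, at 0.0893 FPKM without RANKL and 0.196 and 0.179 with it in WT, and at 0.0714 without and 0 (both libraries) with it in *Jmjd6*-/-, which is 30 fragments in the WT RANKL pair and none in the *Jmjd6*-/- pair, at least 5.25-fold lower by the limit of 3 fragments. *Fga* did not exceed 3 fragments anywhere, so the levels of the chains of 1 protein were unequal in the WT RANKL libraries, at 0.478 FPKM for *Fgg*, 0.188 for *Fgb* and 0.0309 for *Fga*.

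*Vtn*, or vitronectin, an adhesive protein that many stromal cells make, was the highest of the clotting-related genes and did not need RANKL, at 3.35 FPKM without RANKL and 2.76 and 6.04 with it in WT, and at 1.9 without and 1.01 and 0.507 with it in *Jmjd6*-/-. Both *Jmjd6*-/- RANKL values lay below all other libraries, but the WT pair was far apart and the genotype difference of −2.35 ± 0.47 fell short of the threshold (adjusted p = 0.0693). *Kng1*, the precursor of bradykinin, ran from 0.0657 to 0.324 FPKM. *F9* and *F12*, encoding factors IX and XII, did not exceed 0.0485 FPKM.

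Of the 7 protease inhibitors and members of the inter-alpha-trypsin inhibitor family, 5 were tested. *Fetub* alone passed a test, in all 3 for RANKL (over both genotypes 10.5% of all genes tested rose, in WT 6.05% and in *Jmjd6*-/- 3.75%). *Fetub* encodes fetuin-B, an inhibitor of zinc proteases, and was listed at 0.88 FPKM without RANKL and 2.9 and 4.31 with it in WT, and at 1.88 without and 6.55 and 6.17 with it in *Jmjd6*-/-. It rose over both genotypes by 1.80 ± 0.19 (adjusted p = 0.00177), in WT by 1.89 ± 0.30 (adjusted p = 0.0258) and in *Jmjd6*-/- by 1.71 ± 0.30 (adjusted p = 0.0444). Both *Jmjd6*-/- RANKL libraries were above both WT RANKL libraries, with a difference of 0.83 ± 0.24 that did not pass (adjusted p = 0.153), and the *Jmjd6*-/- library without RANKL was also above its WT counterpart.

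*Ahsg*, encoding fetuin-A, lies 18.9 kb from *Fetub* on chromosome 16 but did not follow it, at 0.0802 FPKM without RANKL and 0.323 and 0.097 with it in WT, and at 0 without and 0.3 and 0 with it in *Jmjd6*-/-. *Ambp*, the precursor of alpha-1-microglobulin and bikunin, was listed at 0 FPKM without RANKL and 0.395 and 0.848 with it in WT, and at 0 without and 0 and 0.145 with it in *Jmjd6*-/-. It differed by −2.13 ± 0.58 between genotypes (adjusted p = 0.132). *Ambp* and *Orm1* lie 190.4 kb apart on chromosome 4, and of this pair *Orm1* was high in both genotypes under RANKL.

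The inter-alpha-trypsin inhibitor heavy chains link to hyaluronan of the matrix. *Itih3* was below the filter at 0 FPKM without RANKL and 0.216 and 0.328 with it in WT, and at 0 without and 0.0129 and 0 with it in *Jmjd6*-/-, with 22 fragments in the WT RANKL pair and 1 in the *Jmjd6*-/- pair, a ratio of 23.5 with a 95% counting interval of 3.8 to 970. *Itih4* was listed at 0.032 FPKM without RANKL and 0.335 and 0.318 with it in WT, and at 0.0211 without and 0 and 0.0509 with it in *Jmjd6*-/-, with a difference of −1.80 ± 0.38 (adjusted p = 0.0774). *Itih2*, on chromosome 2, was listed at 0.0448 FPKM without RANKL and 0.353 and 0.298 with it in WT, and at 0.0883 without and 0.158 and 0.0714 with it in *Jmjd6*-/-. *Itih1* reached 0.101 FPKM in WT with RANKL and no more than 0.0236 elsewhere. *Itih4*, *Itih3* and *Itih1* form a cluster on chromosome 14 with gaps of 6.6 and 5.6 kb, and all 3, as well as *Itih2*, had both *Jmjd6*-/- RANKL values below both WT values, an order that 26.5% of genes showed. *Itih1* and *Itih3* were below the filter.

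All 3 acute-phase genes were tested, and 1 passed, *Saa2*, in the genotype test (1.82% of all genes tested were lower). *Saa1* and *Saa2* encode the serum amyloid A proteins, which ride on high-density lipoprotein in inflammation. *Saa1* was listed at 0.36 FPKM without RANKL and 1.9 and 7.52 with it in WT, and at 0 without and 0.0845 and 0.346 with it in *Jmjd6*-/-. *Saa2*, 8.9 kb away on chromosome 7, was listed at 0.0719 FPKM without RANKL and 0.872 and 3.15 with it in WT, and at 0 without and 0 (both libraries) with it in *Jmjd6*-/-. Both were higher in the second WT RANKL library than in the first, with log2 differences of 1.93 for *Saa1* and 1.74 for *Saa2*, the widest gaps between these libraries among the members. Even so every WT RANKL value was above every *Jmjd6*-/- value. The genotype difference was −4.15 ± 0.61 for *Saa2* (adjusted p = 0.0406), at least 7.01-fold by the limit of 3 fragments, and −3.77 ± 0.75 for *Saa1* (adjusted p = 0.0694). Their transcripts are 93.5% identical, and the multi-read correction of the authors may have divided shared reads between them.

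*Crp*, encoding C-reactive protein, varied little, at 0.377 FPKM without RANKL and 0.766 and 0.784 with it in WT, and at 0.333 without and 0.438 and 0.377 with it in *Jmjd6*-/-. It was not over the 3-fold range, and its genotype difference was −0.79 ± 0.27 (adjusted p = 0.201).

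Whether the genotypes responded unequally to RANKL was tested in limma as well. No gene of the whole table passed an adjusted p of 0.05 (0.0%), and 664 of 15894 genes, or 4.18%, had an unadjusted p under 0.05. Among the 28 members 9 did, all with the response in *Jmjd6*-/- below that in WT (*Apoa1*, *Apoa4*, *Apoc1*, *Rbp4*, *Hp*, *Fgg*, *F2*, *Itih4* and *Saa2*). Of these *Fgg*, *F2*, *Itih4* and *Saa2* had passed the filter only through their WT RANKL values. For *Apoc1*, *Hp* and *Fgg* the response had opposite signs, at 0.60, 1.18 and 1.64 in WT and −0.90, −1.25 and −0.39 in *Jmjd6*-/- on the log2 scale. For *Hp* the difference in response was −2.43 ± 0.48 (unadjusted p = 0.00315, adjusted p = 0.712). Each response rests on 1 library without RANKL.

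Without RANKL there was 1 library a genotype and no test. 3 members were more than 3-fold lower in *Jmjd6*-/- after 0.1 was added (*Apoc3*, *Gc* and *Saa1*), against 1.15% of genes, and none was more than 3-fold higher (0.969%). The *Jmjd6*-/- library had the lower depth, and 20 members were at 0 in it, against 9 in WT. *Saa1* rested on 5 fragments in WT and *Apoc3* on 2. 5 members had at least 12 fragments in each library. Of these *Apoc1*, *Orm1* and *Fetub* were higher in *Jmjd6*-/-, with fragment ratios of WT to *Jmjd6*-/- of 0.451 (95% counting interval 0.336 to 0.605), 0.392 (0.168 to 0.897) and 0.466 (0.291 to 0.745). *Vtn* was lower in *Jmjd6*-/-, with a ratio of 1.75 (1.26 to 2.48), and the interval for *Hp* included equal levels, with a ratio of 0.98 (0.589 to 1.67).

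Further plasma protein genes of the liver, 71 in all with 39 tested, gave 9 higher and 1 lower with RANKL over both genotypes (10.5% and 4.11% of all genes tested). In WT alone 10 were higher and 1 lower (6.05% and 0.56% of all), and in *Jmjd6*-/- alone 5 were higher and 1 lower (3.75% and 0.346%). Under RANKL 9 were lower and none higher in *Jmjd6*-/- (1.82% and 0.516%). The largest rises over both genotypes were in *Igfals*, a carrier of insulin-like growth factors (5.01 ± 0.26, adjusted p = 9.11e-05), *Hamp*, the iron hormone hepcidin (4.83 ± 0.23, adjusted p = 7.05e-05), and *Apoc2*, the activator of lipoprotein lipase (3.28 ± 0.38, adjusted p = 0.00243). *Sepp1*, which carries selenium, fell by 1.67 ± 0.21 (adjusted p = 0.00361). Under RANKL the largest genotype differences were in *Saa3* (−3.26 ± 0.23, adjusted p = 0.026), *Apoc2* (−2.90 ± 0.28, adjusted p = 0.0279) and *Mbl2*, a lectin of the complement system (−2.52 ± 0.37, adjusted p = 0.0406). *Igfals* and *Hamp* did not pass the genotype test. Under RANKL *Igfals* was at 5.52 and 5.31 FPKM in WT and 2.52 and 2.05 in *Jmjd6*-/-. *Hamp* was at 3.24 and 3.51 in WT and 2.17 and 2.29 in *Jmjd6*-/-. Both thus had the order, *Jmjd6*-/- below WT, that 26.5% of genes showed.

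Of the 13 liver transcription factors, 6 reached 1 FPKM in some library, and the median of the 13 highest values was 0.252. *Cebpa* stood at 45.8 to 84.9 FPKM over the 6 libraries and *Cebpb* at 20.6 to 32.1. *Foxa1*, a pioneer factor of liver and gut endoderm, rose over both genotypes (1.32 ± 0.12, adjusted p = 0.00107). *Hnf4a* did not exceed 0.18 FPKM and *Foxa3* 0.205. None of the 8 factors tested of 13 passed the genotype test.

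Most hepatocyte enzymes and receptors were near 0. Of 27, 11 were tested and 3 were at 0 in all libraries, among them *Cyp7a1*, the rate-limiting enzyme of bile acid synthesis, and *Otc*, an enzyme of the urea cycle. Their summed level was 12.4 to 18.3 FPKM over the 6 libraries. *Cps1* made up most of the sums without RANKL, at 9.36 FPKM in WT and 11.8 in *Jmjd6*-/-. With RANKL it stood at 2.25 and 2.61 in WT and at 6.62 and 6.65 in *Jmjd6*-/-. Over both genotypes 4 rose with RANKL, *Tdo2* and *Hal* among them, and 1, *Cps1*, fell (10.5% and 4.11% of all genes tested). In WT alone 3 rose and 1 fell (6.05% and 0.56%), and in *Jmjd6*-/- alone 1 rose (3.75%). Under RANKL 1, *Tdo2*, was lower and 1, *Cps1*, higher in *Jmjd6*-/- (1.82% and 0.516%). Several lipoprotein genes are also active in intestine and yolk sac. The 12 markers of these summed to 2.78 and 3.04 FPKM without RANKL, to 29.6 and 35.6 in WT with RANKL and to 18.8 and 18.0 in *Jmjd6*-/- with RANKL. *Cdx1* made up most of the sums with RANKL and *Mttp* most of those without. In the genotype test under RANKL 10 of the 12 were tested. *Rbp2* alone passed and was higher in *Jmjd6*-/- (2.46 ± 0.30, adjusted p = 0.0285), against the direction of the sums. Of all genes tested 0.516% were higher and 1.82% lower. The part of these markers in the member values was not tested.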

How the data were processed

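Gene expression was measured as FPKM in 6 libraries of thymic stroma. Per the paper and the labels, the authors ran paired-end sequencing of poly-A RNA, mapped reads to mm10 with TopHat2 2.0.10 and computed the deposited FPKM values with Cufflinks 2.1.1, with its multi-read option on and a stranded setting that the library kit does not match. No member overlaps another entry, and 0 columns were left out. Depth was estimated from the steps between values under 0.15 FPKM. The values were used unscaled. Members and lists were chosen with earlier results of these data known.

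Limma 3.58.1 (R 4.3.3) was fitted to log2(FPKM + 0.1). Genes averaging under 0.1 FPKM were left out, which kept 15894. The prior variance followed mean expression, and p-values were adjusted by Benjamini-Hochberg. The RANKL effect over both genotypes had genotype as a term, and the other tests used a mean for each of the 4 groups. A difference on this scale understates the change of low genes. On simulated data for the genotype test over 15894 genes, 204 genes were called, 8 of them not moved. Among them were 98 of 100 genes moved by 2 log2 units and 98 of 100 moved by 4. The simulated noise was normal, with the same spread for genes of like level and for all libraries. It lacked the wider spread of the WT RANKL pair, so recovery among the members can be lower. Fragments per member were rounded, and ratios have exact 95% intervals for counting error only. All members were accounted for by role. Values per library are given for members past an adjusted p of 0.05 in any of 5 tests, over the 3-fold range rule or among the 10 highest by mean, and for further members singled out after their values were seen. Alternatives were added constants of 1 and 0.01, no filter or a filter at 1 FPKM, no trend, 2 scalings, each RANKL library left out, the replicate number as a term and a fit of the RANKL libraries alone. The 2 scalings of the order counts were chosen after seeing the data. With 2 libraries a group, an exact permutation test cannot go below p = 0.333. Results for 1 motif and a few genes of the liver lists are not reported here.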

Additional observations from a re-analysis of the deposited data

Results flagged for a closer look

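4 members moved in opposite directions with RANKL in the 2 genotypes, both RANKL libraries of a genotype lying on the same side of its unstimulated library. The share of all genes with such opposite orders is not given here. Taken singly, the order in WT was shown by 35.3% of genes upward and 32.0% downward, and in *Jmjd6*-/- by 37.0% and 40.0%. For *Hp* the log2 response was 1.18 in WT and −1.25 in *Jmjd6*-/-, a difference of −2.43 (limma unadjusted p = 0.00315, adjusted p = 0.712). For *Apoc1* it was 0.60 in WT and −0.90 in *Jmjd6*-/-, a difference of −1.49 (adjusted p = 0.974). For *Afp* it was −0.22 in WT and 1.13 in *Jmjd6*-/-, a difference of 1.35 (adjusted p = 1.0), with 1 fragment in the *Jmjd6*-/- library without RANKL. For *Fgb* it was 0.60 in WT and −0.78 in *Jmjd6*-/-, a difference of −1.38 that was not tested, as *Fgb* was below the filter. The fall of *Afp* in WT rested on 12 fragments in the RANKL pair and 12 without RANKL. Corrected for depth this is a ratio of 0.716, with a 95% counting interval of 0.294 to 1.74 that includes equal levels.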

How the results depend on the processing

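Of the 22 calls of a member in a test, 203 of 262 alternatives kept the call, 59 kept the direction without it, and 0 reversed. *Apoa1* and *F7* kept their rise over both genotypes in every alternative run, as did *Fetub*. Without a filter, which adds genes at 0 to the fit, RANKL calls went from 7 to 3 over both genotypes and to 0 in WT and in *Jmjd6*-/-, and genotype calls from 6 to 0. With 1 added there were 3 RANKL calls in WT and 0 in *Jmjd6*-/-, 8 members over the 3-fold range in place of 25, and 0 unstimulated differences in place of 3. With 0.01 added there were 3 lower genotype calls, and 12 members lower and 1 higher without RANKL. A filter at 1 FPKM gave 3 RANKL calls in WT and 3 genotype calls. Without the trend 1 RANKL call was left in *Jmjd6*-/-. A limit of 10 fragments left 10 members in WT without RANKL, 5 in *Jmjd6*-/- without and 9 in the second *Jmjd6*-/- RANKL library.

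Leaving out 1 RANKL library gave 4 to 8 RANKL calls over both genotypes, 8 to 12 in WT, 2 to 4 higher and 0 to 1 lower in *Jmjd6*-/-, 4 to 11 lower and 0 to 2 higher genotype calls, and 24 to 25 members over the range. The lowest RANKL count, 4, came without the first *Jmjd6*-/- library. Genotype calls were 11 without the first WT library, and *Fetub* and *Orm1* were higher in *Jmjd6*-/- only without the second WT library. Same-numbered libraries did not deviate together (correlation −0.08 over 12587 genes), so the numbers do not pair them. With the replicate number as a block there were 14 RANKL calls in WT, 6 higher and 1 lower (*Apoc1*) in *Jmjd6*-/-, 15 lower genotype calls and 3 different responses (*Apoc1*, *Hp* and *Saa2*). The share of all genes called in each alternative is not given here, so these member counts cannot be set against the whole table. Causes were not tested, and values of under 10 fragments limit most low members.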

Other observations

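The 2 WT RANKL libraries differed from each other more than the 2 *Jmjd6*-/- RANKL libraries did over all genes (median absolute log2 difference 0.276 against 0.0767 over 12587 genes). Over the 38 members the figures were 0.436 and 0.368. The second WT RANKL library was the higher one for 26 members and the lower one for 10, with *Saa1*, *Saa2* and *Orm1* furthest apart.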
